A study of Mus musculus with 33 samples.

Results

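Hepatocytes move bile acids and other organic anions between blood and bile with a small set of membrane transporters, and 10 of their genes are described here, chosen by symbol for these roles. They were 10 of the 19169 genes in the count table, and all 10 were among the 14934 genes that passed the filter on low counts. Of the 10, 4 encode uptake transporters of the sinusoidal (blood-facing) membrane (Slc10a1, Slco1a1, Slco1a4 and Slco1b2), 4 encode export pumps of the canalicular (bile-facing) membrane (Abcb11, Abcb4, Abcc2 and Abcb1a) and 2 encode pumps of the basolateral membrane that return anions to blood (Abcc3 and Abcc4).

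The study sequenced polyadenylated liver RNA of mice in 33 libraries. Knock-in mice (KI, Nlrp3A350V/+CreT) carried 1 mutant allele of Nlrp3, an inflammasome sensor, switched on by a tamoxifen-inducible Cre, and were set beside wild-type mice (WT). Over 6 weeks the diet was either chow holding GS-444217 (ASK1i), a drug that blocks the stress kinase ASK1, or control chow with placebo. The sources used here do not name the cells in which Cre acts, the age of the mice or whether WT mice received tamoxifen. There were 10 KI ASK1i libraries (5 male, 5 female), 5 KI control libraries (4 male, 1 female), 8 WT ASK1i libraries (4 male, 4 female) and 10 WT control libraries (3 male, 7 female). Nothing in the labels ties a library to its own mouse, so the p-values below speak for the spread among libraries, which may be technical.

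Bile acids enter hepatocytes with sodium through NTCP, the product of Slc10a1, and without sodium through the organic anion transporting polypeptides of the Slco family. They leave into bile through the bile salt export pump, the product of Abcb11, while the floppase encoded by Abcb4 supplies the phosphatidylcholine that shields bile duct cells from them. Abcc2 exports conjugated bilirubin and glutathione conjugates into bile, Abcb1a is a multidrug efflux pump, and Abcc3 and Abcc4 provide a return route to blood that is known to be used when bile flow is impaired.

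The promoters of 9 of the 10 genes were found in RefSeq sequences of build GRCm38.p6, 11 promoters in all, each running from 250 bases before to 50 bases after a transcript start. Those of Slc10a1, Slco1a1 and Abcb11 are shown as those of the sodium-dependent bile acid uptake transporter, of the uptake transporter with 0 counts in KI control and of the bile salt export pump, and both of Abcc4 because it was the member that differed with diet. Capitals mark matches on either strand to AGGTCA, the half-site bound by nuclear receptors, to TGACNNNGC, the core of the antioxidant response element, or to TTCNNNGAA, the STAT element.
Slc10a1, chr12:80968030-80968329, minus strand: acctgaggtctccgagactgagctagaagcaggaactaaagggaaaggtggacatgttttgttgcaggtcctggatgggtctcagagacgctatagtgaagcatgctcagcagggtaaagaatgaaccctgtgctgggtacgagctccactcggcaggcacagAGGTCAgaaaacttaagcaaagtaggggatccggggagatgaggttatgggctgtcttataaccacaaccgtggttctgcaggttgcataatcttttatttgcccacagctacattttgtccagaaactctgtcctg
Slco1a1, chr6:141946913-141947212, minus strand: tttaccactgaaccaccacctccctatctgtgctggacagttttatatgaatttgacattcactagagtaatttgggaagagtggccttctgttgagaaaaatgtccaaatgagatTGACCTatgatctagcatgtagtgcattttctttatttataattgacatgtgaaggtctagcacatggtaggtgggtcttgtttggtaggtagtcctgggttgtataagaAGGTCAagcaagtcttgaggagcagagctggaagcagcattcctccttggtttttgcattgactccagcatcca
Abcb11, chr2:69342567-69342866, minus strand: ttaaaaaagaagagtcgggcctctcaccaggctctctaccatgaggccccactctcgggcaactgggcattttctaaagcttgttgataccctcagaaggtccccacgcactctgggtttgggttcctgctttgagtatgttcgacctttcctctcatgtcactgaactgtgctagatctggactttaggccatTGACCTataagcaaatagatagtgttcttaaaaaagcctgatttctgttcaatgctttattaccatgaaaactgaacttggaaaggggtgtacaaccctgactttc
Abcc4, first start, chr14:118706170-118706469, minus strand: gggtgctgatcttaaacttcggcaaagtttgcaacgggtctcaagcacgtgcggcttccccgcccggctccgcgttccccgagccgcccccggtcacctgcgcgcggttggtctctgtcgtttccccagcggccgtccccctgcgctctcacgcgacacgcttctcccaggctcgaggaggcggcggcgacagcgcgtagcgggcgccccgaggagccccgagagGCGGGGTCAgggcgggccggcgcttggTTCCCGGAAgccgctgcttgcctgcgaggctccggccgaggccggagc
Abcc4, second start, chr14:118676882-118677181, minus strand: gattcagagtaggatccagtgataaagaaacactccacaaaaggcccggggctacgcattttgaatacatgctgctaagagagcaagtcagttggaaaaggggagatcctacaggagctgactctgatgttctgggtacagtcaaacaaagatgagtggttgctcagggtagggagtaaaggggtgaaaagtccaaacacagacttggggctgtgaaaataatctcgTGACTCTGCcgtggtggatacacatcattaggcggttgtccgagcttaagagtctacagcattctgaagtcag

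AGGTCA was present in 5 of the 11 promoters, against 16.3% of all 32851 mouse promoters in the table. Slco1a1 held 2 copies, beginning at -134 and -24 (-1 is the base before the start and 1 the first base transcribed), Abcb11 held 1 at -56 and Slc10a1 1 at -87, and the others were in Abcc2 and Slco1b2. TGACNNNGC was present in 4 of the 11, against 12.4% of all promoters, and these included both Abcc4 promoters, at -25 and at -23, beside those of Abcc2 and Abcb1a. TTCNNNGAA was present in 3 of the 11, against 8.30% of all promoters, those of Slco1b2, a second start of Slc10a1 and the first start of Abcc4, where it began at base 3. None of the 13 matches overlapped another. A match describes letters and does not show that a factor binds there.

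Total counts ran from 32245900 to 38393474 per library in KI ASK1i, from 33754743 to 38584259 in KI control, from 30212449 to 40008114 in WT ASK1i and from 28099685 to 33572199 in WT control. Levels are given as CPM, the gene's counts relative to all counts of the library, scaled between libraries by the trimmed mean of M-values. Nlrp3 itself ran from 7.87 to 15.6 CPM in KI control and from 1.62 to 4.96 CPM in WT control, and was 2.10 higher on the log2 scale (adjusted p = 3.64e-08). Map3k5, the gene of ASK1, averaged 21.8 ± 2.80 CPM in KI control (SD, n = 5) and 38.0 ± 10.4 CPM in WT control (n = 10). On the first principal component (62.2% of the variance) the female library labelled KI ASK1i replicate 5 sat at -59.2, inside the WT range of -74.1 to -45.9, and the remaining KI libraries sat at 54.8 or higher. Its Nlrp3 level of 2.10 CPM was the lowest of any KI library. It is kept unless stated otherwise.

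The 3 Slco genes lie in one stretch of chromosome 6 (build mm10), where Slco1b2 starts at 141629517 and Slco1a1 ends at 141946962, and Abcb1a and Abcb4 lie close together on chromosome 5, between 8660091 and 8959226. Slc10a1 is on chromosome 12 (80953184 to 80968079), Abcb11 on chromosome 2 (69238281 to 69342616), Abcc2 on chromosome 19 (43782307 to 43838218), Abcc3 on chromosome 11 (94343294 to 94392976) and Abcc4 on chromosome 14 (118482691 to 118706219). In WT control livers the members spanned a wide range of levels per length of transcript. Slc10a1 had 448 ± 48.1 CPM per kilobase (SD, n = 10) and Slco1b2, which takes up bilirubin and drugs, had 339 ± 108 CPM per kilobase. Below these came Abcc3 at 116 ± 10.2, Abcb11 at 91.8 ± 24.9, Abcb4 at 81.7 ± 18.8, Slco1a4 at 58.0 ± 19.8 and Abcc2 at 45.0 ± 9.10 CPM per kilobase, where each gene overlapped the next within 1 SD, as Slc10a1 and Slco1b2 also did. The least abundant were Slco1a1 at 11.3 ± 18.2, Abcb1a at 3.24 ± 0.875 and Abcc4 at 1.84 ± 0.387 CPM per kilobase, so Abcc3 stood far above Abcc4 among the basolateral pumps. In KI control livers the order kept Slc10a1 (150 ± 15.7 CPM per kilobase, n = 5) and Slco1b2 (135 ± 22.1) at the top, closer together, and Abcc3 at 67.0 ± 13.7 and Abcb11 at 53.6 ± 18.9 came next.

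Relative to library size, KI livers held less RNA of the uptake transporters and of most exporters than WT livers. With scaling to the summed hepatocyte markers, Abcc2, Abcc3 and Abcc4 were called higher in KI on both diets (adjusted p under 0.05, edgeR). With that scaling 13491 of 14934 genes were called higher on control chow and 13228 on ASK1i. Such calls are therefore no result about these 3 members. Slco1a4 (0.17, adjusted p = 0.609), Abcb11 (0.41, 0.108) and Abcb1a (0.51, 0.126) then turned positive on control chow but were not called. On control chow 8 of the 10 members were called lower and 0 higher (adjusted p under 0.05 in edgeR's quasi-likelihood test with Benjamini-Hochberg adjustment over all genes), against 28.9% of all genes tested called lower and 56.7% called in either direction. The median log2 fold change was -1.03 over the members and -0.033 over all genes. By role it was -1.41 over the uptake genes, -0.84 over the canalicular and -0.33 over the basolateral ones. All 4 uptake genes, 3 of the 4 canalicular genes and 1 of the 2 basolateral genes were called lower. In bulk liver, fewer hepatocytes and less RNA per hepatocyte cannot be told apart: 9 of 11 measured hepatocyte markers were also lower, and their summed level ran from 35001 to 59665 CPM in KI control and from 110435 to 139203 CPM in WT control, while all 10 neutrophil and all 9 measured macrophage markers were higher. Summed neutrophil markers ran from 703.9 to 3774 CPM in KI control and from 6.14 to 23.1 CPM in WT control, and summed markers of cholangiocytes, which also express several of these exporters, from 73.8 to 131 CPM in KI control and from 48.7 to 90.2 CPM in WT control, with no marker of these lists at 0 throughout a group. Scaling to the hepatocyte markers in place of library size raised the median of all genes to 1.30. With that scaling Slc10a1 was at -0.17 (adjusted p = 0.352, edgeR) and Slco1b2 at -0.017 (0.930), and neither was called. Slco1a1 and Abcb4 (-0.46, 0.0429) stayed called lower. Relative to the shift of all genes, Slc10a1 was at -1.47, Slco1a4 at -1.13, Slco1b2 at -1.32, Abcb11 at -0.89 and Abcb4 at -1.77. Abcc2 was at -0.43, Abcb1a at -0.79, Abcc3 at -0.74 and Abcc4 at 0.13. The scaling moves all genes of a library alike, so these differences largely restate the fold changes relative to library size. KI control and WT control also share no L code, a mark in the titles whose meaning is not stated, so no value within an L code can be given for them.

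Slc10a1 was at 264, 268, 259, 257 and 204 CPM in the 5 KI control libraries, against 603, 750 and 905 CPM as the lowest, median and highest of the 10 WT control libraries. The groups did not overlap. The log2 fold change was -1.49 (SE 0.26, adjusted p = 1.60e-05, edgeR quasi-likelihood). Slco1b2 had 373, 374, 453, 495 and 539 CPM in KI control and 656, 1060.4 and 1729.6 CPM (lowest, median, highest) in WT control. Again the groups did not overlap, and the log2 fold change was -1.34 (SE 0.22, adjusted p = 8.73e-06).

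Slco1a4, which carries bile acids, steroid conjugates and cardiac glycosides, was at 117, 132, 111, 77.2 and 41.7 CPM in KI control, against 109, 206 and 363 CPM (lowest, median, highest) in WT control. The groups overlapped at their edge, where 3 KI control libraries reached above the lowest WT control one. Its log2 fold change was -1.15 (SE 0.38, adjusted p = 0.0115), and the call was lost with the L code fitted (-0.66, adjusted p = 0.353) and with numbered titles only (-0.76, adjusted p = 0.0805).

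Slco1a1, a male-biased uptake transporter of mouse liver, had 0 counts in all 5 KI control libraries. In WT control it was at 140.3, 156 and 69.2 CPM in the 3 males and between 0 and 10.8 CPM in the 7 females, with a median of 0.502 CPM. Against a floor of 3 counts over the KI control group, the mean was at least 2453-fold lower in KI control than in WT control, and at least 6352-fold lower among males alone. The groups touched only at 0, which 1 WT control female shared, and the adjusted p was 1.73e-05. With sex fitted within genotype it was 0.153 and with the L code fitted 0.127, and DESeq2 gave no p-value for this gene.

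Among canalicular genes, Abcb4 was lower by the most. It was at 84.3, 98.4, 95.1, 84.7 and 77.8 CPM in KI control and at 229.5, 329 and 463 CPM (lowest, median, highest) in WT control. The groups did not overlap, and the log2 fold change was -1.76 (SE 0.31, adjusted p = 1.97e-05). Its transcript shares 3.15% of its 50-base windows with Abcb1a, so few of its reads could be split between those genes.

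Abcb11 was at 107, 269, 301, 351 and 285 CPM in KI control, against 266, 415 and 643 CPM (lowest, median, highest) in WT control. The KI control female was far below the others and the 4 males overlapped the lower WT control libraries, while the 3 WT control males, at 545 to 643 CPM, lay above every KI control male. The log2 fold change was -0.92 (SE 0.28, adjusted p = 0.00677). The call was lost without KI control replicate 1, that female (-0.66, adjusted p = 0.0544), with the L code fitted (-0.68, adjusted p = 0.182), with numbered titles only (-0.80, 0.0820) and with sex fitted within genotype (-0.57, 0.209).

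Abcc2 ran from 245 to 333 CPM in KI control and from 305 to 521 CPM in WT control, groups that overlapped, with a log2 fold change of -0.48 (SE 0.17, adjusted p = 0.0157). That call was lost with the L code fitted (-0.40, adjusted p = 0.198), numbered titles only (-0.27, 0.208), no covariate (-0.38, 0.0558), males only (-0.50, 0.110) and sex within genotype (-0.44, 0.0891), and without KI control replicate 1P (-0.40, 0.0550). Abcb1a ran from 4.84 to 17.9 CPM in KI control and from 9.07 to 22.7 CPM in WT control and was not called (-0.76, SE 0.39, adjusted p = 0.0924). It was called lower without KI control replicate 3, the library at 17.9 CPM (-1.18, adjusted p = 0.0117), without the library labelled KI ASK1i replicate 5 (0.0229), with limma-voom (0.0300), with only the groups compared (0.0435) and with no covariate (0.0379). Its counts are uncertain, since 15.5% of its 50-base windows are shared with Abcb1b, which was named after its values were seen and was 1.25 higher in KI control than in WT control on the log2 scale (adjusted p = 0.00139).

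Of the basolateral pair, Abcc3 was called lower and Abcc4 was not, and the difference between them was not tested. Abcc3 was at 412, 388, 335, 297 and 242 CPM in KI control and at 491, 590.5 and 654 CPM (lowest, median, highest) in WT control, without overlap, and its log2 fold change was -0.76 (SE 0.11, adjusted p = 2.08e-06). Abcc4, which exports bile acids together with glutathione and also cyclic nucleotides, was at 10.7, 13.3, 11.4, 8.18 and 9.49 CPM in KI control and at 7.03, 10.4 and 14.1 CPM (lowest, median, highest) in WT control. These groups overlapped throughout, and the log2 fold change of 0.11 had a 95% interval of -0.25 to 0.47 (adjusted p = 0.630). On control chow 4 of the 10 members (Slc10a1, Slco1b2, Abcb4 and Abcc3) had KI control levels wholly below WT control levels, against 29.1% of all genes with groups that do not overlap in either direction.

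**Figure D1:**
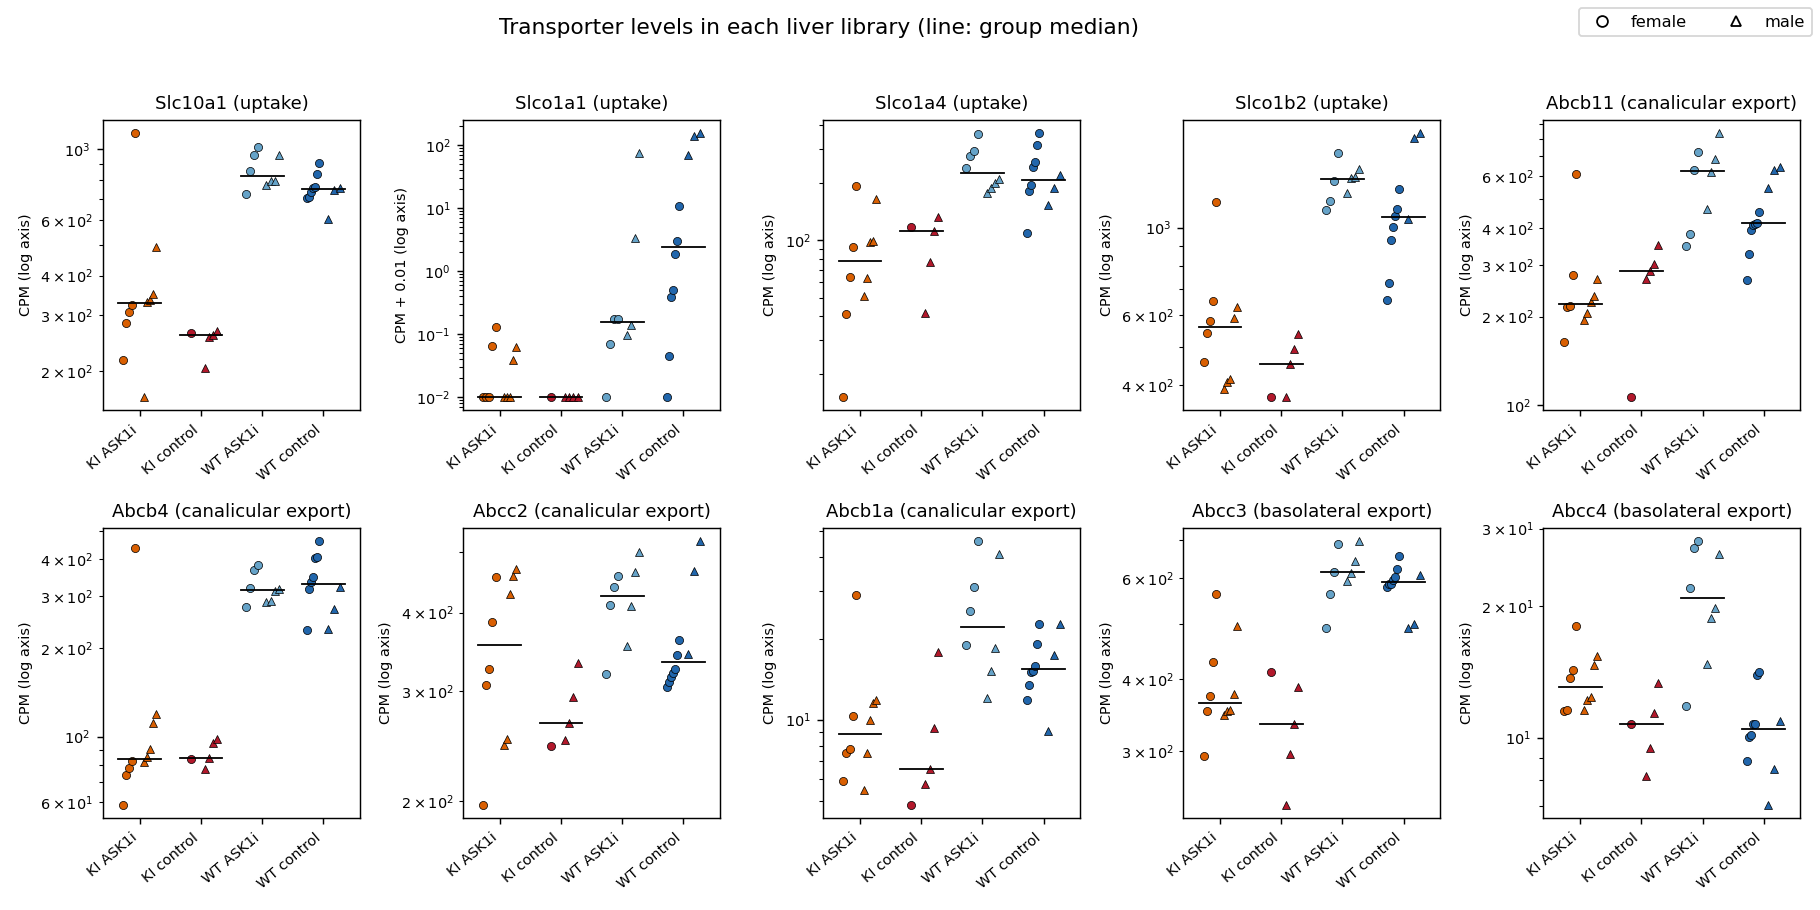
Level of each of the 10 transporter genes in every library (CPM on a log axis; Slco1a1 as CPM + 0.01 because of zeros), by group, with circles for females, triangles for males and a line at the group median. KI libraries lie below WT libraries for Slc10a1, Slco1b2, Abcb4 and Abcc3 on control chow, the library labelled KI ASK1i replicate 5 lies at WT levels of 1125 CPM for Slc10a1 and 439 CPM for Abcb4, and WT ASK1i is the highest group for Abcc4. Scaling to hepatocyte markers turns the KI against WT fold change of Abcc3 positive on both diets. It also raises the median of all genes, to 1.30 on control chow and 1.12 on ASK1i.

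On the ASK1i diet 9 of the 10 members were called lower in KI than in WT and 0 higher, against 28.8% of all genes called lower and 59.1% called in either direction, with a median log2 fold change of -1.16 over the members and 0.007 over all genes. By role it was -1.31 over the uptake genes, -1.21 over the canalicular and -0.62 over the basolateral ones. The summed hepatocyte markers ran from 38990 to 117655 CPM in KI ASK1i, the top value being that of replicate 5, and from 107746 to 148980 CPM in WT ASK1i. Here scaling to them moved the median of all genes to 1.12. With that scaling Slc10a1 (-0.15, adjusted p = 0.295, edgeR), Slco1b2 (-0.16, 0.320), Slco1a4 (-0.47, 0.0979), Abcb11 (-0.13, 0.523) and Abcb1a (-0.23, 0.399) were not called. Slco1a1 and Abcb4 (-0.44, 0.0175) stayed called lower. Relative to the shift of all genes, Slc10a1 was at -1.27, Slco1a4 at -1.59, Slco1b2 at -1.27, Abcb11 at -1.25 and Abcb4 at -1.56. Abcc2 was at -0.34, Abcb1a at -1.34, Abcc3 at -0.63 and Abcc4 at -0.63. These differences again largely restate the fold changes relative to library size. The genotypes met in L1 and L7 on this diet. In L1, 4 KI ASK1i libraries averaged 294 ± 53.0 CPM of Slc10a1 and 74.6 ± 11.2 CPM of Abcb4, against 725 and 852 CPM of Slc10a1 and 276 and 320.2 CPM of Abcb4 in the 2 WT ASK1i libraries there. L7 held 1 KI ASK1i library, at 335 CPM of Slc10a1 and 119 CPM of Abcb4, and 2 WT ASK1i libraries, at 958 and 959 CPM of Slc10a1 and at 318 and 382 CPM of Abcb4.

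Slc10a1 was at 165, 327 and 1125 CPM (lowest, median, highest) in KI ASK1i, against 725, 824 and 1020 CPM in WT ASK1i. Only the library labelled replicate 5 reached the WT range, and the highest of the other 9 was at 491 CPM. The log2 fold change was -1.11 (SE 0.20, adjusted p = 2.17e-05) with replicate 5 and -1.43 without it. Abcb4 was at 58.8, 84.2 and 439 CPM in KI ASK1i and at 276, 315 and 382 CPM in WT ASK1i. It showed the same arrangement, with the next highest KI ASK1i library at 119 CPM, and log2 fold changes of -1.39 (SE 0.24, adjusted p = 9.30e-06) with and -1.83 without replicate 5.

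Slco1b2 ran from 392 to 1160.3 CPM in KI ASK1i (653 CPM at most without replicate 5) and from 1110.2 to 1546 CPM in WT ASK1i, with a log2 fold change of -1.18 (SE 0.17, adjusted p = 1.12e-06), and -1.41 without replicate 5. Slco1a4 ran from 15.1 to 191 CPM in KI ASK1i (164 CPM at most without replicate 5) and from 176 to 360 CPM in WT ASK1i, with a log2 fold change of -1.43 (SE 0.30, adjusted p = 0.000169), and -1.62 without replicate 5. Abcb11 ran from 165 to 611 CPM in KI ASK1i (277 CPM at most without replicate 5) and from 348 to 837 CPM in WT ASK1i, with a log2 fold change of -1.14 (SE 0.22, adjusted p = 6.99e-05), and -1.46 without replicate 5. These 3 genes, like Slc10a1 and Abcb4, overlapped WT ASK1i through replicate 5 alone. The call of Abcb11 was lost among females only (-0.81, adjusted p = 0.0695).

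Abcb1a, not called on control chow, ran from 5.50 to 29.0 CPM in KI ASK1i (11.9 CPM at most without replicate 5) and from 12.0 to 46.1 CPM in WT ASK1i. Its log2 fold change was -1.28 (SE 0.30, adjusted p = 0.000561) and -1.62 without replicate 5, and the call was lost with numbered titles only (-0.85, adjusted p = 0.0675). Abcc2 overlapped widely, at 197 to 470 CPM in KI ASK1i and 319.5 to 501 CPM in WT ASK1i, and was not called (-0.27, SE 0.14, adjusted p = 0.0818). It was called lower without replicate 5 (-0.32, adjusted p = 0.0415), without replicate 6 (0.0477), without replicate 1P (0.0411) and with the L code fitted (-0.49, 0.0132). All 10 members overlapped with replicate 5 in, and 6 lay wholly below WT ASK1i without it (Slc10a1, Slco1a4, Slco1b2, Abcb11, Abcb4 and Abcb1a), against 6.27% of all genes not overlapping with it and 25% without it.

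Slco1a1 was at 0 to 0.122 CPM in KI ASK1i (0.0546 CPM at most without replicate 5), where 6 of the 10 libraries had 0 counts, and at 0 to 75.8 CPM in WT ASK1i with a median of 0.146 CPM. The groups overlapped, and 6 of the 8 WT ASK1i libraries were themselves under 0.2 CPM. Its adjusted p was 0.000353, but 0.105 with limma-voom, 0.660 with sex fitted within genotype and 0.728 among females only.

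Both basolateral pumps were called lower in KI on the ASK1i diet. Abcc3 ran from 294 to 563 CPM in KI ASK1i (496 CPM at most without replicate 5) and from 491 to 697 CPM in WT ASK1i (log2 fold change -0.60, SE 0.09, adjusted p = 1.98e-06, and -0.66 without replicate 5). Abcc4 was at 11.5, 13.0 and 18.0 CPM (lowest, median, highest) in KI ASK1i and at 11.8, 20.9 and 28.1 CPM in WT ASK1i, groups that overlapped in their lower range. Its log2 fold change was -0.64 (SE 0.14, adjusted p = 0.000312) and -0.60 without replicate 5, beside 0.11 on control chow. The difference between those 2 values is the interaction of genotype and diet, given below with the diet results.

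**Figure D2:**
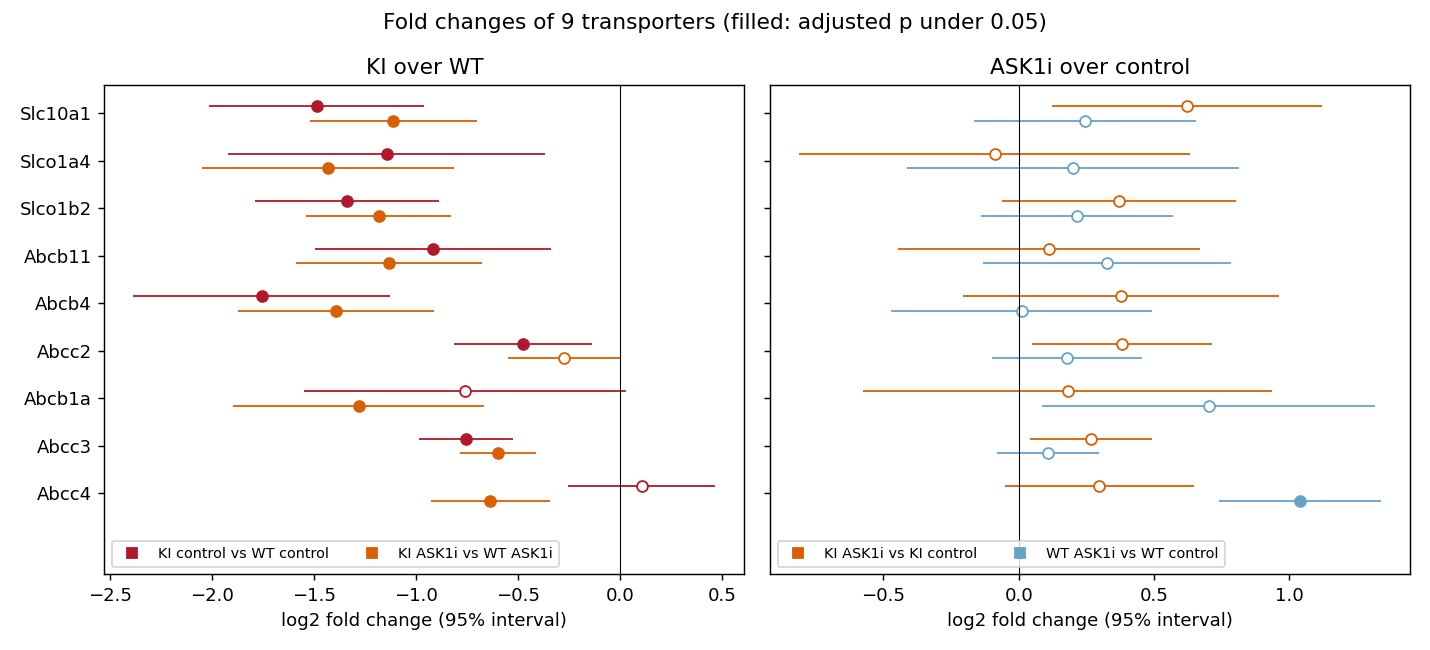
Log2 fold changes with 95% intervals for 9 members (Slco1a1 is left out because 5 KI control libraries had 0 counts): on the left KI over WT on each diet, on the right ASK1i over control in each genotype, filled where the adjusted p is under 0.05. On the left all values lie below 0 except Abcc4 on control chow (0.11). With hepatocyte marker scaling Slco1a4, Abcb11, Abcc2, Abcb1a and Abcc3 turn positive on control chow and Abcc2, Abcc3 and Abcc4 on ASK1i. That scaling raises the median of all genes to 1.30 on control chow and 1.12 on ASK1i. On the right only Abcc4 in WT is filled (1.04).

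With the inhibitor 1 member differed, Abcc4 in WT livers. It was called higher on ASK1i (1 of 10 members higher and 0 lower, against 1.13% of all genes called higher, 0.268% called lower and 1.4% in either direction). Abcc4 was at 11.8, 20.9 and 28.1 CPM (lowest, median, highest) in WT ASK1i, against 7.03, 10.4 and 14.1 CPM in WT control. All but 1 WT ASK1i library, replicate 6 at 11.8 CPM, lay above the highest WT control library. The means were 21.1 ± 5.94 CPM (SD, n = 8) and 10.5 ± 2.21 CPM (n = 10), and the log2 fold change was 1.04 (SE 0.15, adjusted p = 0.000133).

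Within L6, the L code that holds both WT groups, Abcc4 was at 14.7 to 26.2 CPM in 4 WT ASK1i libraries and at 10.1 to 14.1 CPM in 4 WT control libraries, without overlap. The rise kept its direction in smaller subsets but was not called there, at 0.70 with numbered titles only (adjusted p = 0.0994), 1.00 among males only (0.373) and 0.74 among females only (0.154).

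**Figure D3:**
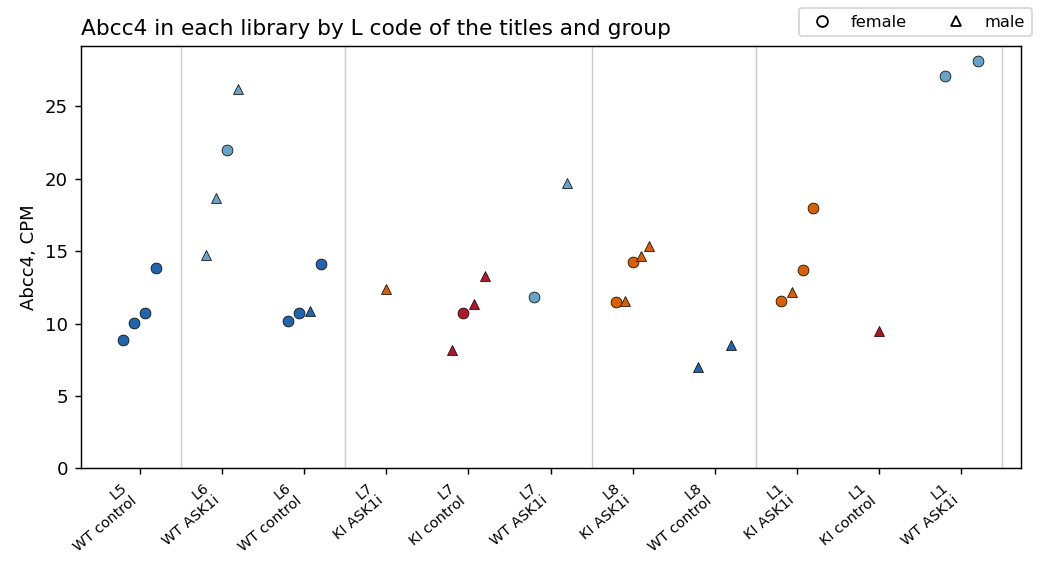
Abcc4 in CPM (axis from 0) in every library, placed by the L code of its title and by group, with circles for females and triangles for males. Within L6 the 4 WT ASK1i libraries (14.7 to 26.2 CPM) lie above the 4 WT control libraries (10.1 to 14.1 CPM), and KI libraries of either diet lie between 8.18 and 18.0 CPM.

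In KI livers Abcc4 averaged 13.5 ± 2.10 CPM on ASK1i (SD, n = 10) and 10.6 ± 1.94 CPM on control chow (n = 5), a log2 fold change of 0.30 (95% interval -0.05 to 0.65, adjusted p = 0.530). The interaction, KI effect minus WT effect, was -0.74 (SE 0.22) with a raw p of 0.00241 and an adjusted p of 0.453 over all genes. No member was called for the interaction by edgeR, DESeq2 or limma-voom, Abcc4 was the only member with an unadjusted p under 0.05 in edgeR, and 0% of all genes were called.

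No member was called between KI ASK1i and KI control by edgeR, DESeq2 or limma-voom, against 0.0536% of all genes in edgeR. With edgeR, 3 members had an unadjusted p under 0.05: Slc10a1 (0.62, 95% interval 0.12 to 1.12, adjusted p = 0.438), Abcc2 (0.38, adjusted p = 0.455) and Abcc3 (0.27, adjusted p = 0.449). The share of all genes under that unadjusted threshold is not given here, so this count is no result about the members. Slco1b2 was at 0.37, Abcb4 at 0.38, Abcb1a at 0.18, Abcb11 at 0.11 and Slco1a4 at -0.088, with adjusted p-values above 0.5. Without the library labelled replicate 5, Slc10a1 was at 0.36, Slco1b2 at 0.18, Abcb4 at 0.029 and Slco1a4 at -0.24, while Abcb1a (-0.086) and Abcb11 (-0.16) turned negative. Abcc2 and Abcc3 were then at 0.34 and 0.22. The groups overlapped for all 10 members, against 0.0937% of all genes without overlap. KI control had 4 libraries in L7 and 1 in L1, while KI ASK1i had 5 in L8, 4 in L1 and 1 in L7.

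Of the other 9 members none was called with the inhibitor in WT livers by edgeR or DESeq2, and limma-voom called Slco1a1 lower (-5.45, adjusted p = 0.0401). Slco1a1 was at 75.8, 3.32, 0.131 and 0.0880 CPM in the 4 WT ASK1i males, against 140.3, 156 and 69.2 CPM in the 3 WT control males, and at 0 to 0.165 CPM in WT ASK1i females, against 0 to 10.8 CPM in WT control females. A single WT ASK1i male, replicate 2, reached the range of control males and the other 3 were far below it. The 4 WT ASK1i males had numbered titles, in L6 or L7. The control males at 156 and 69.2 CPM had P titles, in L8, so diet and title series are largely mixed among males. The log2 fold change was -3.36 (SE 1.05, adjusted p = 0.120). It was -6.03 with an adjusted p of 0.00183 without replicate 2, the only library whose removal gave a call. Within L6 the gene ran from 0.131 to 75.8 CPM in WT ASK1i (3 males, 1 female) and from 0 to 140.3 CPM in WT control (1 male, 3 females), so that code holds too few of each sex to compare. Abcb1a was 0.70 higher (SE 0.30, adjusted p = 0.284), and the remaining 7 members lay between 0.011 and 0.33 on the log2 scale with adjusted p-values of 0.551 to 0.993.

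Slco1a1 was the member called for sex in WT. It was at 0.0880 to 156 CPM in 7 WT males (median 69.2 CPM) and at 0 to 10.8 CPM in 11 WT females (median 0.165 CPM). It was 6.74 higher in males on the log2 scale (SE 1.10, adjusted p = 0.00160), against 1.01% of all genes called higher in males, 1% called lower and 2.02% in either direction. The call was lost with the L code fitted (5.71, adjusted p = 0.163) and with numbered titles only (6.39, adjusted p = 0.136). In KI livers no male or female exceeded 0.122 CPM, at most 4 counts in a library, so no sex difference could be measured at this depth.

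**Figure D4:**
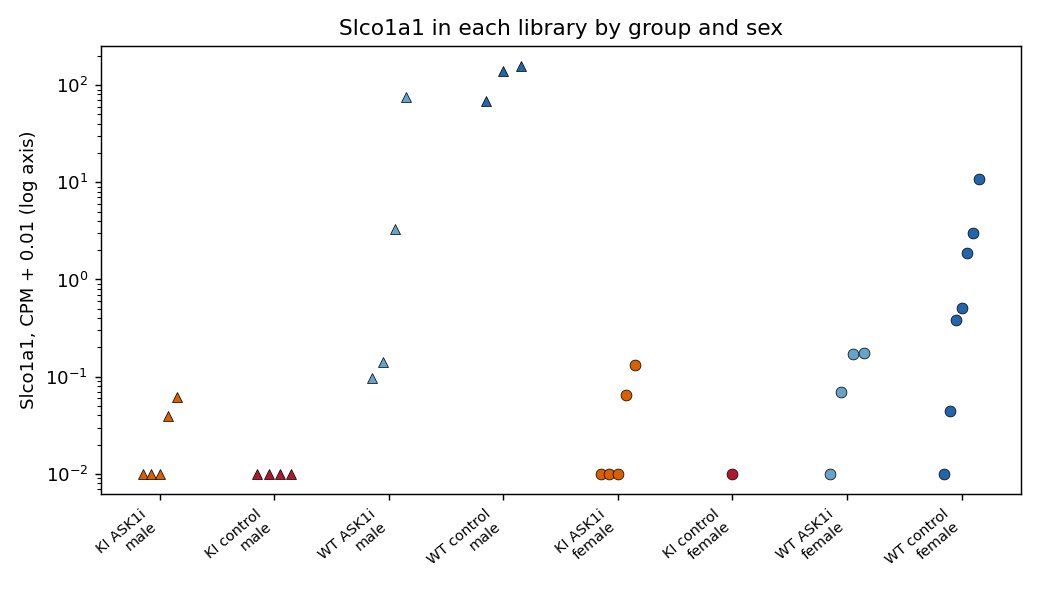
Slco1a1 in CPM + 0.01 on a log axis in every library, split by group and sex. WT control males lie at 69.2 to 156 CPM, WT ASK1i males at 0.0880 to 75.8 CPM and WT females at 10.8 CPM or below, while no KI library of either sex exceeds 0.122 CPM.

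Abcb11 ran from 464 to 837 CPM in WT males (n = 7) and from 266 to 721 CPM in WT females (n = 11), overlapping ranges with a log2 fold change of 0.49 (SE 0.20, adjusted p = 0.193), and it was called higher in males without the library labelled KI ASK1i replicate 5 (adjusted p = 0.0302). In KI it ran from 196 to 351 CPM in males (n = 9) and from 107 to 611 CPM in females (n = 6, 277 CPM at most without replicate 5). The log2 fold change was 0.55 (SE 0.27) and 0.82 without replicate 5, neither of them called. Both diets weigh equally in these values, and KI control held 1 female, at 107 CPM against 301 ± 35.2 CPM in 4 males. In KI ASK1i males ran from 196 to 269 CPM and females other than replicate 5 from 165 to 277 CPM. Slco1b2 and Slco1a4 were 0.33 and -0.42 in WT males relative to females (adjusted p = 0.319 and 0.533). No member was called for sex in KI or for the interaction of genotype and sex by edgeR, DESeq2 or limma-voom, none had an unadjusted p under 0.05 in edgeR, and 0.087% of all genes (0.0268% higher and 0.0603% lower in males) and 0% were called.

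Set against each other in mean log2 CPM, uptake relative to basolateral export was lower in all 5 KI control libraries than in all 10 WT control libraries. The balance of a library is the mean log2 CPM of the uptake genes minus that of the exporters; it is described without a test because the members were chosen. Uptake minus canalicular export was -1.55 ± 0.28 in KI ASK1i (SD, n = 10), -1.58 ± 0.37 in KI control (n = 5), -0.96 ± 0.90 in WT ASK1i (n = 8) and -0.13 ± 1.05 in WT control (n = 10). The KI values depend on the prior count of 2 given to Slco1a1 at 0 counts, and KI control was at -2.08 ± 0.37 with a prior count of 0.5. Without that gene the balance was 1.34 ± 0.34 in KI ASK1i, 1.37 ± 0.39 in KI control, 1.64 ± 0.20 in WT ASK1i and 1.72 ± 0.19 in WT control, with overlap between all groups.

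Uptake minus basolateral export, with all 4 uptake genes, was -1.17 ± 0.51 in KI ASK1i, -1.09 ± 0.17 in KI control, -0.078 ± 0.77 in WT ASK1i and 0.98 ± 1.21 in WT control. Without Slco1a1 it was 1.72 ± 0.56 in KI ASK1i, 1.86 ± 0.16 in KI control, 2.52 ± 0.27 in WT ASK1i and 2.83 ± 0.28 in WT control, and KI control, at 2.11 at most, lay wholly below WT control, at 2.52 at least. On the log2 of summed CPM, which the most abundant genes set, these groups overlapped, with 1.64 at most in KI control and 1.57 at least in WT control. On the ASK1i diet the genotypes overlapped also without Slco1a1. There KI ASK1i replicates 5 (2.97), 6 (2.16) and 4P (2.03) lay above the lowest WT ASK1i library (2.02).

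**Figure D5:**
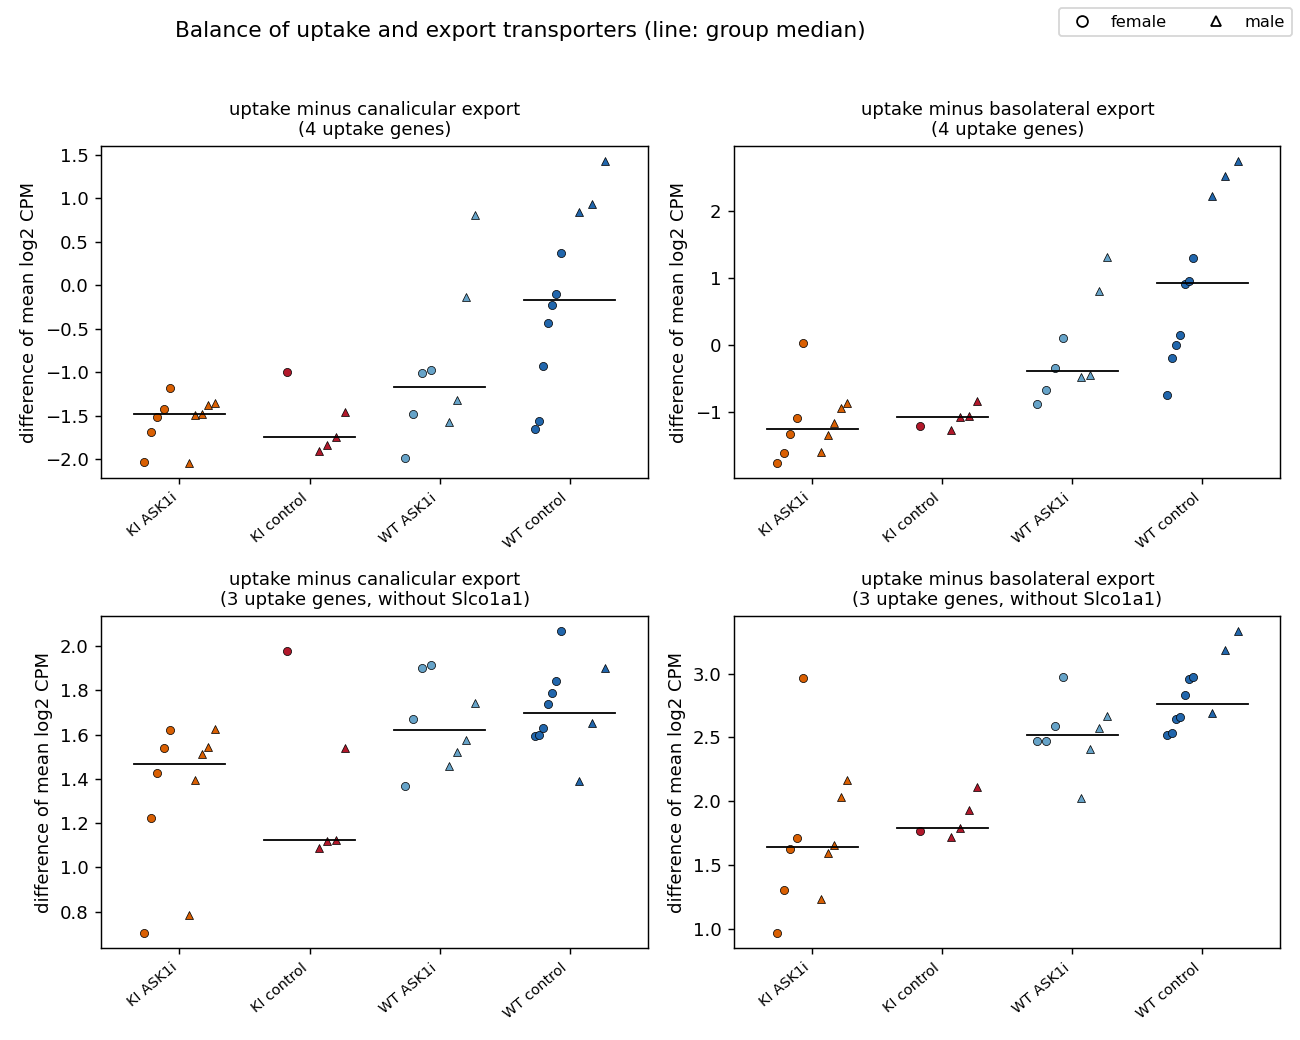
Difference of mean log2 CPM between uptake genes and canalicular exporters (left) or basolateral exporters (right) in every library, with all 4 uptake genes (top) or without Slco1a1 (bottom); circles are females, triangles males and lines group medians. Without Slco1a1, uptake minus basolateral export is at most 2.11 in KI control and at least 2.52 in WT control. On ASK1i the genotypes overlap, with KI ASK1i replicates 5 (2.97), 6 (2.16) and 4P (2.03) above the lowest WT ASK1i library (2.02).

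Members can also be read against the hepatocyte markers of the same library, as log2 of CPM plus 1 minus the mean of the 11 measured markers, again without a test. On that scale KI control minus WT control was -0.50 for Slc10a1, -0.80 for Abcb4, -0.20 for Slco1b2 and -0.16 for Slco1a4, but 0.71 for Abcc2, 0.26 for Abcc3, 0.25 for Abcb11, 0.18 for Abcb1a and 1.10 for Abcc4. Slco1a4 was thus lower against the mean of the markers and, at 0.17, higher against their sum. KI ASK1i minus WT ASK1i was -0.45 for Slc10a1, -0.78 for Abcb4, -0.36 for Slco1b2, -0.83 for Slco1a4, -0.36 for Abcb1a and -0.33 for Abcb11, and 0.57 for Abcc2, 0.22 for Abcc3 and 0.31 for Abcc4. Slco1a1 was at -1.80 on control chow and -0.24 on ASK1i. These values are limited by the 1 added to CPM, since KI libraries held few or no counts of it. Read against Alb alone, Abcb4 kept its sign on both diets (-0.12 on control chow and -0.36 on ASK1i). On control chow Slc10a1 (0.18), Slco1b2 (0.49) and Slco1a4 (0.53) turned positive, as Slco1a1 (0.17), Slco1b2 (0.059), Abcb11 (0.087) and Abcb1a (0.061) did on ASK1i. With library sizes replaced by the summed hepatocyte markers, edgeR called Abcc2 (0.87, adjusted p = 5.78e-06), Abcc3 (0.56, adjusted p = 0.00105) and Abcc4 (1.43, adjusted p = 2.83e-07) higher and Slco1a1 and Abcb4 (-0.46, adjusted p = 0.0429) lower in KI control than in WT control. That scaling moves all genes of a library alike. With it 13491 of 14934 genes were called higher in this comparison, and the median of all genes rose to 1.30. Differences from that median, such as -0.43 for Abcc2 and -0.74 for Abcc3, therefore largely restate the fold changes relative to library size.

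Other transporters of liver cells went both ways between genotypes. Of 17 tested, 7 were higher and 7 lower in KI control than in WT control (27.8% and 28.9% of all genes), and 7 were higher and 8 lower on the ASK1i diet (30.3% and 28.8% of all genes). Abcc1, an exporter of glutathione conjugates, averaged 10.7 ± 0.648 CPM in KI control and 4.25 ± 0.80 CPM in WT control (log2 fold change 1.46, adjusted p = 1.42e-08). Slc10a6, a carrier of sulfated steroids from the family of Slc10a1, averaged 10.5 ± 8.77 CPM in KI control and 0.586 ± 0.194 CPM in WT control (4.35, adjusted p = 6.84e-08). Leukocyte markers were also higher in KI livers, and the part of those cells in the values of this list was not tested.

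Abcc5, a pump of cyclic nucleotides, averaged 18.7 ± 1.97 CPM in KI control and 8.82 ± 1.29 CPM in WT control (1.16, adjusted p = 1.29e-07), and Abcc6, known for ATP release from hepatocytes, averaged 51.9 ± 6.89 CPM in KI control and 142 ± 22.2 CPM in WT control (-1.48, adjusted p = 2.41e-07). On the ASK1i diet the smallest p-values went to Abcc6 (-1.59), Slco2b1 (-1.41), Abcc1 (1.29) and Slc10a6 (4.97), of which Slco2b1 is another organic anion uptake transporter. With the inhibitor in WT, 1 of the 17 was called, Abcg8, a canalicular sterol exporter (0.75, adjusted p = 0.0350).

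Among 20 nuclear receptors and other regulators of transporter genes, 2 were higher and 10 lower in KI control than in WT control (27.8% and 28.9% of all genes), and 1 was higher and 10 lower on ASK1i (30.3% and 28.8% of all genes). Klb, the co-receptor of the intestinal hormone that represses bile acid synthesis, averaged 13.5 ± 4.57 CPM in KI control and 37.0 ± 4.43 CPM in WT control (-1.45, adjusted p = 9.09e-06). Ppara, the fatty acid receptor, was -1.38 and Rxra, the shared partner of these receptors, -0.47 on the log2 scale in that comparison, while Vdr, the vitamin D receptor, was 3.51 higher but averaged only 0.618 ± 0.316 CPM in KI control and 0.0606 ± 0.0603 CPM in WT control. On ASK1i, Klb (-1.39), Stat5b (-0.63), a relay of growth hormone, and Cebpa (-0.74), a hepatocyte transcription factor, were lower and Vdr (2.93) higher.

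Of 11 genes of bile acid synthesis and conjugation, 8 were lower and 0 higher in KI control than in WT control (28.9% and 27.8% of all genes), and 8 lower and 1 higher on ASK1i (28.8% and 30.3% of all genes). Cyp27a1, which opens the alternative pathway of synthesis, averaged 262 ± 20.4 CPM in KI control and 575 ± 67.7 CPM in WT control (-1.10, adjusted p = 1.36e-06). Hsd3b7 (-1.22), Slc27a5 (-0.79) and Amacr (-0.57), which act later in synthesis and in conjugation, were also lower, as they were on ASK1i (-1.26, -0.83 and -0.56). In this list and among the regulators the lower calls came beside the lower hepatocyte markers, whose part in them was not tested.

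Of 9 genes of apical membrane anchoring and trafficking, 2 were higher and 2 lower in KI control than in WT control (27.8% and 28.9% of all genes), and 3 higher and 2 lower on ASK1i (30.3% and 28.8% of all genes). These counts are near the share over all genes and are no result about the list, so the genes named next are single genes. With edgeR, Ezr (1.79) and Msn (1.69) were higher and Pdzk1 (-1.09) and Rdx (-0.79) lower on ASK1i. Among the proteins that link membrane transporters to actin, Msn averaged 155 ± 13.8 CPM in KI control and 42.3 ± 6.21 CPM in WT control (1.92, adjusted p = 1.60e-08) and Ezr 26.1 ± 2.87 CPM and 8.70 ± 1.72 CPM in those groups (1.66, adjusted p = 1.42e-07). Rdx, the member of that family that predominates in hepatocytes and tethers Abcc2, averaged 98.3 ± 12.1 CPM in KI control and 154 ± 25.9 CPM in WT control (-0.72, adjusted p = 4.11e-05), and Pdzk1, a scaffold of membrane transporters, was at -0.89 on the log2 scale. Msn and Ezr are also expressed in leukocytes, whose markers were higher in KI livers, and the part of those cells was not tested.

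Over the 33 libraries, the genes whose pattern lay closest to a member, by the mean absolute difference of log2 CPM centred on each gene among 11654 genes, were Chchd10 (0.17), Mpdz (0.17) and Aadat (0.17) for Slc10a1 and Nqo2 (0.20), Fkbp4 (0.22) and Paics (0.23) for Abcb11. For Abcc4 they were Nqo1 (0.27), Lnp (0.30) and Srebf2 (0.30). All libraries are shared between the genes of such a pair, so these distances are descriptions.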

How the data were processed

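Per the submitters' processing notes, the authors used CASAVA 1.8.2, STAR 2.4 and RSEM 1.2.14 with mouse build mm10; no settings or annotation are named in the sources used here. Per the labels, RNA of frozen liver was made into stranded polyadenylated libraries. The authors deposited expected counts (RSEM) for each gene without normalisation; in a library 91.4% to 93.7% of them were whole (tolerance 1e-06). RSEM divides reads that fit several genes, so Abcb1a is uncertain against Abcb1b. All columns were matched by title.

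Counts were rounded and fitted in R 4.3.3 with edgeR 4.0.16 (TMM, filterByExpr, quasi-likelihood F test, robust) to all 33 libraries, with group, sex and title set as terms, or with group by sex for the sex comparisons. Tests were two-sided, Benjamini-Hochberg adjusted over 14934 genes, with a threshold of 0.05. The prior count was 0.125 for log2 fold changes and 2 for log2 CPM, and SE is that of the fold change. Floors (3 counts) cover counting error only. Only the tests of KI control against WT control, WT ASK1i against WT control and sex in WT were tried on simulated data. Sex labels matched the counts in 33 of 33 libraries, and no 2 libraries of a group were repeats (128 pairs, lowest chi-square per gene 26.2).

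The members and lists were chosen with earlier results of these data known. Members are named in every comparison, from each list the up to 4 called genes with the smallest p, and 3 nearest genes for Slc10a1, Abcb11 and Abcc4. The alternatives tried were DESeq2 1.42.0, RLE size factors, limma-voom (limma 3.58.1), other filters, unrounded counts, robust off, other covariates (the L code among them), a replicate block, subsets by title, sex and group, each library left out, and scaling to hepatocyte markers.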

Additional observations from a re-analysis of the deposited data

Results flagged for a closer look

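In a group of 4 to 10 libraries, a library was picked out where its gap to the nearest other one took an unusually large share of the group's range. This was the case in 8 of 39 member-group sets. Chance gives about 1 in 20 for independent, normally spread values. The members share libraries and CPM need not be normal, so 8 of 39 cannot be read against that rate. Of the 8, 6 were the library labelled KI ASK1i replicate 5, the highest of its group. It had 1125 CPM for Slc10a1 (next highest 491 CPM), 1160.3 CPM for Slco1b2 (next 653 CPM), 611 CPM for Abcb11 (next 277 CPM), 439 CPM for Abcb4 (next 119 CPM), 29.0 CPM for Abcb1a (next 11.9 CPM) and 0.122 CPM for Slco1a1 (next 0.0546 CPM). Its summed hepatocyte markers were 117655 CPM and its summed neutrophil markers 10.3 CPM.

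The remaining ones were KI control replicate 1P, the lowest of its group at 204 CPM for Slc10a1 (next lowest 257 CPM), and WT ASK1i replicate 2, a male, the highest of its group at 75.8 CPM for Slco1a1 (next 3.32 CPM).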

How the results depend on the processing

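Leaving out each library in turn, the members called ranged from 7 to 9 for KI control against WT control, 9 to 10 for KI ASK1i against WT ASK1i, 1 to 2 for WT ASK1i against WT control and 1 to 2 for sex in WT, and were 0 throughout for KI ASK1i against KI control, both interactions and sex in KI, where the only KI control female could not be left out. Counts of members called differed by over 1.5 times from the reported count as follows. For KI control against WT control (8) there were 4 with the L code fitted, 5 with numbered titles only, 5 with sex within genotype and 5 with hepatocyte marker scaling (3 higher, 2 lower), under which KI ASK1i against WT ASK1i (9) gave 5 and sex in KI (0) gave 2. For WT ASK1i against WT control (1) there were 2 with limma-voom and 0 with numbered titles, males or females only. For sex in WT (1) there were 0 with the L code, numbered titles only or DESeq2, which gave Slco1a1 no p-value, and 2 without KI ASK1i replicate 5. The cause was not tested.

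Hepatocyte marker scaling reversed Slco1a4 (0.17), Abcb11 (0.41), Abcc2 (0.87), Abcb1a (0.51) and Abcc3 (0.56) for KI control against WT control, Abcc2 (0.78), Abcc3 (0.49) and Abcc4 (0.49) for KI ASK1i against WT ASK1i, Abcb11 (-0.27), Abcb4 (-0.0039) and Abcb1a (-0.12) for KI ASK1i against KI control, and Abcb4 (-0.027) for WT ASK1i against WT control. It also left Slc10a1 and Slco1b2 not called between genotypes on both diets, without a change of sign. The other reversals were of members not called. Abcc4 for KI control against WT control was -0.062 with numbered titles only and -0.017 with sex within genotype. For KI ASK1i against KI control, Slco1a4 was 0.073 in males only and 0.058 with only the groups compared, Abcb1a was -0.086 without KI ASK1i replicate 5 and -0.11 in males only, and Abcb11 was -0.33 with the L code, -0.16 without KI ASK1i replicate 5, -0.0058 with group only, -0.43 in males only, -0.036 with sex within genotype and -0.028 with only the groups compared. For WT ASK1i against WT control, Slco1a4 was -0.22 in males only, and Abcb4 was -0.040 without KI ASK1i replicate 5, -0.062 with group only, -0.0054 with sex within genotype and -0.012 with only the groups compared. Leaving out 1 library reversed Slco1a4 (-0.30 to 0.036), Abcb11 (-0.16 to 0.21) and Abcb1a (-0.086 to 0.60) for KI ASK1i against KI control and Abcb4 (-0.049 to 0.10) for WT ASK1i against WT control.

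Same-numbered libraries of different groups had residual correlations of -0.27 to 0.36 over 37 pairs (median 0.043). The median was 0.00099 over 363 other pairs between groups, and 12 of the 37 were above 0.1. Whether same-numbered libraries share more than a number cannot be decided from these correlations. With a replicate block no count of members called changed, Abcb4 for WT ASK1i against WT control was -0.076, and calls over all genes were 133 in place of 209 in that comparison and 0 in place of 8 for KI ASK1i against KI control. Over all genes the L code left 5103 of 8466 calls for KI control against WT control and 23 of 209 for WT ASK1i against WT control, hepatocyte marker scaling gave 13706 and 13572 calls between genotypes, nearly all of them higher (13491 and 13228), females only gave 5712 of 8819 for KI ASK1i against WT ASK1i, and other settings gave 366 (DESeq2), 375 (without KI ASK1i replicate 5), 58 (hepatocyte marker scaling), 19 (numbered titles only), 8 (females only) and 0 (males only), and more than any of these with only the groups compared, for WT ASK1i against WT control and 0 to 37 for KI ASK1i against KI control.

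For KI control minus WT control, uptake minus canalicular export was -0.35 without Slco1a1 and uptake minus basolateral export -0.62 from summed CPM. Read against Alb alone, the median of the members was 0.70 for KI control minus WT control and 0.074 for KI ASK1i minus WT ASK1i. At these depths the counts of Slco1a1 in KI (0 to 4 per library) set the limit: no sex or diet difference in KI could be measured for it.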
